A study of Homo sapiens with 14 samples.

Results

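Integrins are the receptors by which cells hold on to the matrix around them, and each receptor joins an alpha chain to a beta chain. Laminins are the main adhesive proteins of the basement membrane, and each is a trimer of an alpha, a beta and a gamma chain that integrins and other receptors bind. In lung epithelium the laminin-binding integrins anchor cells to the basement membrane, while integrins that bind fibronectin, vitronectin or collagen serve attachment to other matrix and are often followed in studies of tumour invasion. The genes described here are the 38 whose symbol names an integrin alpha chain (18 genes), an integrin beta chain (8 genes) or a laminin chain (12 genes). They were picked out by symbol from the 26732 genes listed in both count tables, and this family was chosen with earlier results of these data known. They are referred to below as the subunit genes.

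A549 and H1792 are long-established human cell lines from lung adenocarcinoma. Cultures received 0.1 µM AMG900, which inhibits all aurora kinases, or DMSO as solvent control, and RNA was sequenced 48 h later. A549 was represented by 4 DMSO and 4 AMG900 libraries and was grown in DMEM, and H1792 was represented by 3 DMSO and 3 AMG900 libraries and was grown in RPMI 1640. The protocol in the labels states 3 replicates per treatment, but 4 A549 libraries per treatment are listed, and all 4 were used. The labels describe separate culture dishes of each line, so a p-value measures the spread between dishes of a single line at a single dose and time. Only RNA was measured, and in bulk RNA fewer cells of a kind and less RNA per cell cannot be told apart.

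Total counts ranged from 4254644 to 18962883 per library in A549 and from 42810734 to 79984064 in H1792. A549 DMSO replicate 1 was the smallest library and stood apart for several subunit genes, so results that rest on it are given with and without it. The keratin genes KRT7, KRT8 and KRT18 were at 251.8 CPM, or counts scaled to a common library size, or more in every library. The epithelial adhesion gene EPCAM was at 0.0860 to 0.542 CPM in A549 and at 3.34 to 3.93 CPM in H1792, and CDH1 was at 14.8 to 45.0 CPM in A549 and at 0.583 to 1.07 CPM in H1792. The 6 epithelial marker genes summed to 7533 to 9790 CPM with DMSO and 10704 to 12615 CPM with AMG900 in A549, and to 1574 to 1974 CPM and 1981 to 2025 CPM in H1792. The 7 fibroblast marker genes summed to 83.1 to 114 CPM with DMSO and 39.9 to 50.7 CPM with AMG900 in A549, and to 3553 to 4515 CPM and 2643 to 2726 CPM in H1792. The interstitial collagen genes COL1A1 (1563 to 2705 CPM) and COL1A2 (919.7 to 1570 CPM) led that list in H1792, while A549 held COL1A1 at 38.5 to 113 CPM and COL1A2 at 0.213 to 0.921 CPM. Neither sum overlapped between treatments in either line, and their part in the subunit changes was not tested. The subunit genes took 0.329% to 0.377% of the counts in A549 DMSO and 0.432% to 0.466% in A549 AMG900, with no overlap. In H1792 the same share was 0.199% to 0.214% with DMSO and 0.198% to 0.201% with AMG900.

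**Figure D1:**
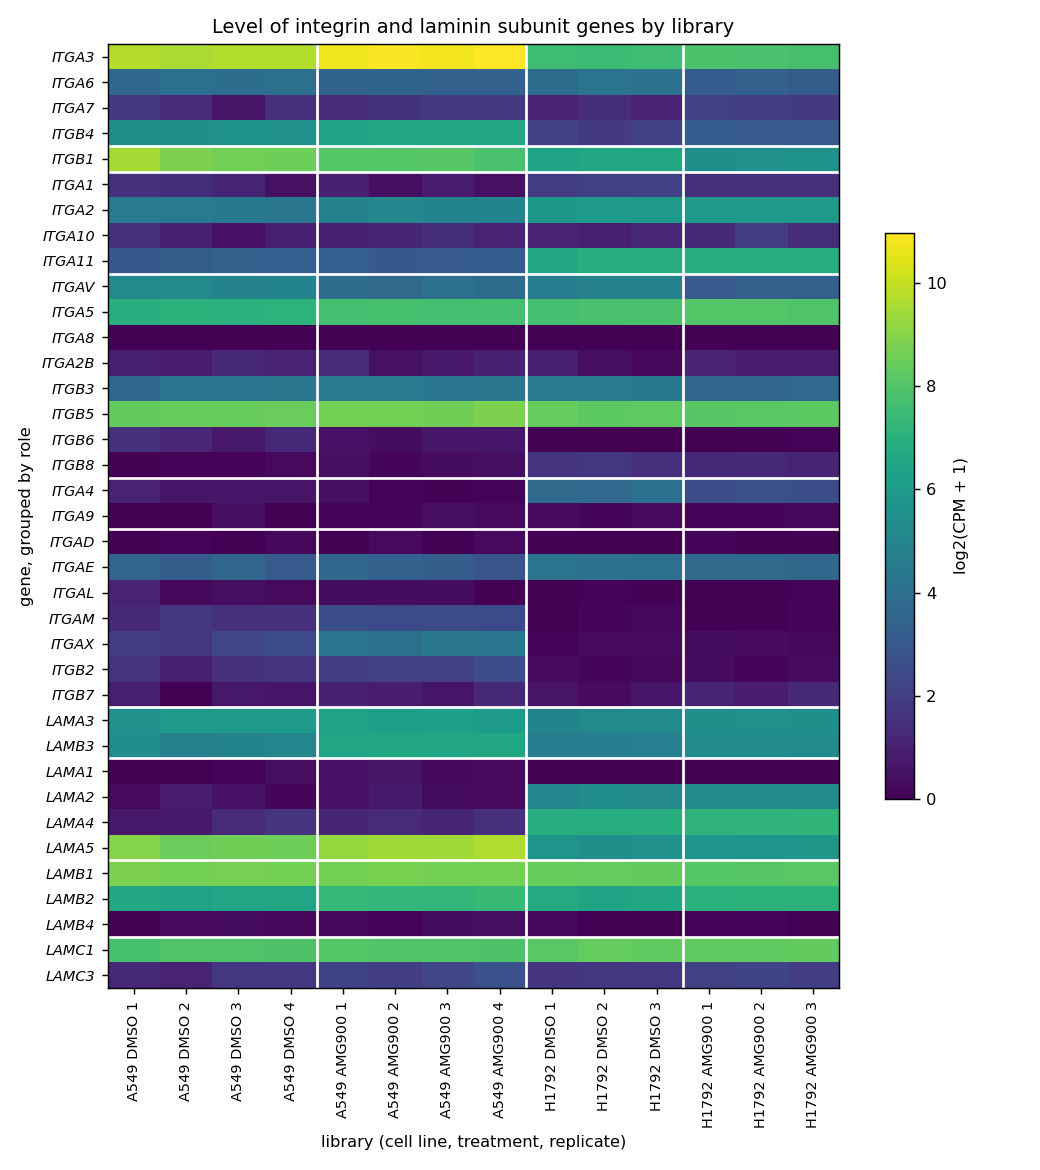
Heat map of log2(CPM + 1) for the subunit genes shown (rows, grouped by role) in the 14 libraries (columns, grouped by line and treatment). ITGA3, ITGB5, LAMB1 and LAMC1 are bright in every library, LAMA2, LAMA4, ITGA11 and ITGA4 are brighter in H1792, and LAMA5, ITGB4 and ITGAX are brighter in A549.

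Levels between genes were compared per transcript length, as reads per kilobase of the canonical transcript (RPKM, that is CPM divided by length). In DMSO, A549 integrin alpha RNA was mostly ITGA3, the partner of ITGB1 in a laminin receptor, which made up 78.7% ± 1.17 (SD, n = 4) of the summed alpha chain RPKM. ITGA5, the alpha chain of the main fibronectin receptor, followed with 14.1% ± 1.198. In H1792 the order was the other way round, with ITGA5 at 42.5% ± 0.301 (SD, n = 3) and ITGA3 at 31.2% ± 1.25, and the collagen-binding chain ITGA11 came next with 8.73% ± 0.483.

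Among the beta chains, ITGB1, which pairs with most alpha chains, made up 58.4% ± 7.96 of the summed RPKM in A549 DMSO and 24.0% ± 2.88 in H1792 DMSO. ITGB5, a partner of ITGAV that binds vitronectin, made up 36.1% ± 6.85 in A549 and 71.4% ± 2.91 in H1792. These 2 chains held most of the beta chain RNA in both lines. The A549 share of ITGB1 spanned 51.7% to 69.7%, and the highest value was in DMSO replicate 1.

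The leading laminin alpha chain differed between the lines. LAMA5, the alpha chain of most adult epithelial basement membranes, made up 85.9% ± 3.40 of the laminin alpha RPKM in A549 DMSO and 14.7% ± 1.40 in H1792 DMSO. LAMA4, a chain typical of mesenchymal and vascular cells, made up 0.429% ± 0.258 in A549 and 60.6% ± 0.872 in H1792. LAMA2, the muscle and nerve sheath chain, made up 0.102% ± 0.0851 and 13.2% ± 1.41. LAMB1 was the leading laminin beta chain in both lines, at 76.3% ± 1.53 and 72.1% ± 1.54, and LAMC1 the leading gamma chain, at 79.5% ± 1.05 and 98.1% ± 0.307.

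**Figure D2:**
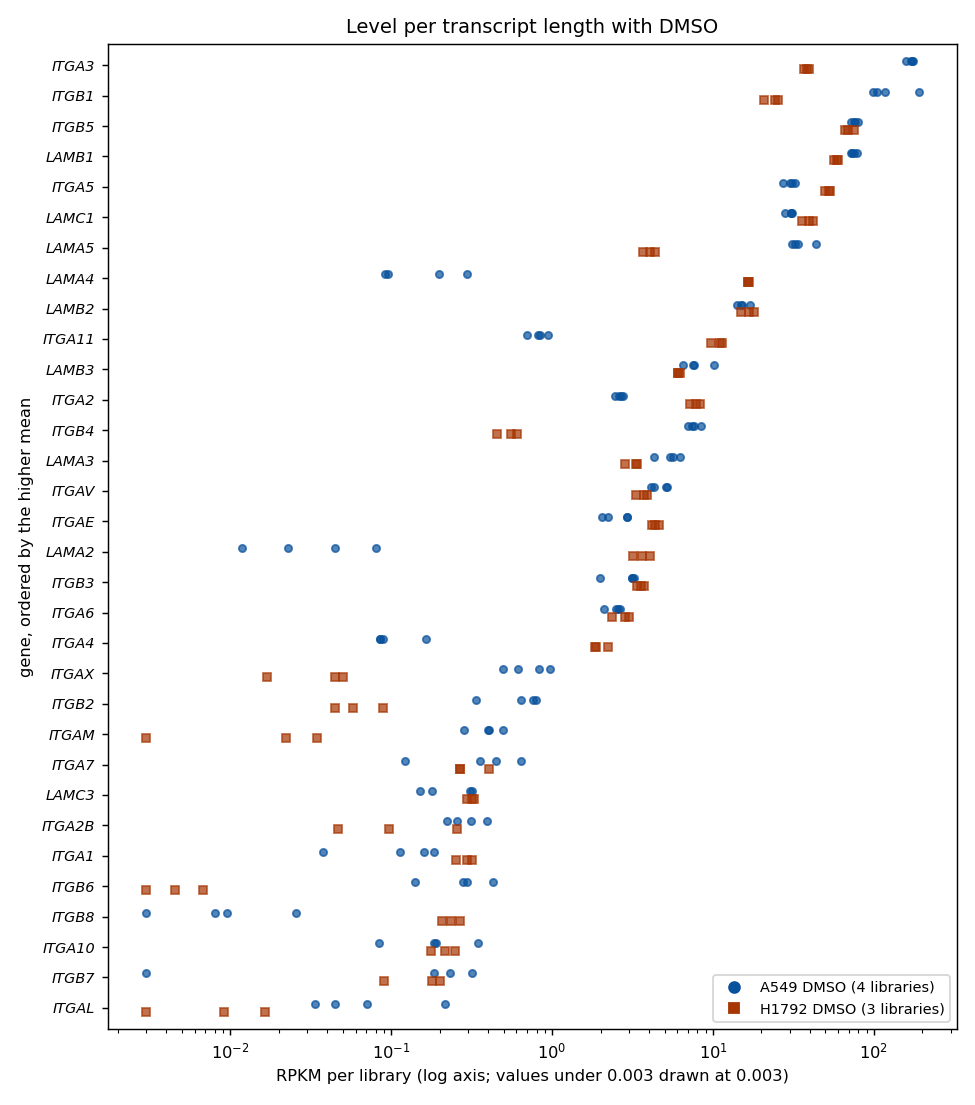
Level of the subunit genes shown with DMSO in RPKM per library on a log axis, circles for 4 A549 libraries and squares for 3 H1792 libraries, genes ordered by the higher of their means. ITGA8, ITGA9, ITGAD, LAMA1 and LAMB4, very low in both lines, are not drawn, and the lowest values are drawn at a fixed floor. ITGA3 and ITGB1 lie far to the right in A549, while LAMA4, LAMA2 and ITGA4 are far higher in H1792.

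At baseline, H1792 DMSO was compared with A549 DMSO with edgeR (quasi-likelihood test, p-values adjusted over all genes after Benjamini and Hochberg, threshold 0.01). Cell line, count table, growth medium and sequencing depth changed together in this comparison and cannot be told apart. Of 31 subunit genes tested, 10 were higher in H1792 and 11 were lower. Of all 14011 genes tested, 30.9% were called higher and 31.2% lower, or 62.2% in either direction, so the subunit genes were called about as often as genes at large. Their median log2 difference was -0.17, against -0.01 over all genes, while their median absolute log2 difference was 1.32, against 0.78.

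The largest differences in favour of H1792 were those of 2 laminin alpha chains. LAMA2 was at 0.222, 0.774, 0.432 and 0.115 CPM in the A549 DMSO libraries and at 30.8, 39.1 and 35.1 CPM in the H1792 DMSO libraries. Its log2 difference was 6.45 ± 0.29 (SE, edgeR adjusted p = 3.99e-09), and the A549 values rest on 1 to 9 counts per library. LAMA4 was at 0.665, 0.688, 1.44 and 2.13 CPM in A549 and at 119, 119 and 121 CPM in H1792, a log2 difference of 6.36 ± 0.21 (edgeR adjusted p = 3.60e-10). Every H1792 DMSO library was above every A549 DMSO library for both chains.

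The integrin chains higher in H1792 were led by ITGA4, the alpha chain that binds VCAM and a splice form of fibronectin. ITGA4 was at 1.11, 0.602, 0.576 and 0.576 CPM in A549 and at 12.7, 12.5 and 15.1 CPM in H1792, with a log2 difference of 4.33 ± 0.22 (edgeR adjusted p = 1.24e-08). ITGB8, a partner of ITGAV that binds latent transforming growth factor beta, was at 0 to 4 counts per A549 library and at 2.12, 2.39 and 1.87 CPM in H1792 (log2 difference 3.999 ± 0.46, edgeR adjusted p = 1.02e-05). ITGA11, a collagen receptor chain of fibroblasts, was at 7.09, 8.34, 9.65 and 8.58 CPM in A549 and at 98.7, 113 and 115 CPM in H1792 (log2 difference 3.62 ± 0.11, edgeR adjusted p = 2.18e-10). The other collagen-binding chain ITGA2 was also higher in H1792, at 56.1 to 65.5 CPM against 19.3 to 21.5 CPM (log2 difference 1.52 ± 0.10, edgeR adjusted p = 9.12e-08). For none of these genes did the lines overlap.

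The gene most depleted in H1792 was ITGB6, an epithelial partner of ITGAV, with 57 counts summed over the A549 DMSO libraries and 3 over the deeper H1792 DMSO libraries. The ratio of its counts per total was 66.8, with an exact 95% counting interval of 21.7 to 334. ITGB4, the beta chain of the hemidesmosome, was at 43.4, 41.4, 49.3 and 44.7 CPM in A549 and at 3.54, 2.66 and 3.29 CPM in H1792 (log2 difference -3.87 ± 0.14, edgeR adjusted p = 8.10e-10). ITGB4 was thus far lower in H1792, whereas its partner ITGA6 was not called, at a log2 difference of 0.09 ± 0.13, and neither was LAMB3, at -0.41 ± 0.14. The leukocyte chains ITGAM, ITGAX and ITGB2 were at 0.946 to 4.49 CPM in A549 and at or under 0.251 CPM in H1792, with log2 differences of -4.54, -4.40 and -3.26. With at least 10 counts required in every library, 12 of the 21 baseline calls remained, because 9 genes near 0 in a line were then not tested.

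The effect of AMG900 was tested in each line by the same edgeR method. In A549, 28 subunit genes were tested, of which 10 rose and 3 fell. Over all 13174 genes tested in A549, 17.2% rose and 17.8% fell, or 35.0% in either direction. The median log2 fold change of the tested subunit genes was 0.33, against -0.01 over all genes. In H1792, 30 were tested, of which 10 rose and 8 fell, where 16.2% of all 15017 genes rose and 18.8% fell, or 35.1% in either direction. The median log2 fold change of the tested subunit genes in H1792 was 0.21, against 0.01 over all genes.

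By chain type, 5 integrin alpha, 1 integrin beta and 4 laminin genes rose in A549, and 2 alpha chains and 1 beta chain fell. No laminin chain fell in A549, where 9 were tested, while 1 of the 10 tested in H1792 did. In H1792, 3 integrin alpha, 2 integrin beta and 5 laminin genes rose, and 5 alpha chains, 2 beta chains and 1 laminin chain fell. Genes called in the same direction in both lines were ITGA3, ITGA5, ITGB4, LAMB2 and LAMB3, which rose, and ITGA6, ITGAV and ITGB1, which fell. No subunit gene was called in opposite directions. The share of all genes called alike in both lines was not counted, so these calls are not read as a trait of the subunit genes. ITGA10, ITGA11, ITGA2B, ITGB2, ITGB5 and LAMC1 were tested in both lines and called in neither.

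**Figure D3:**
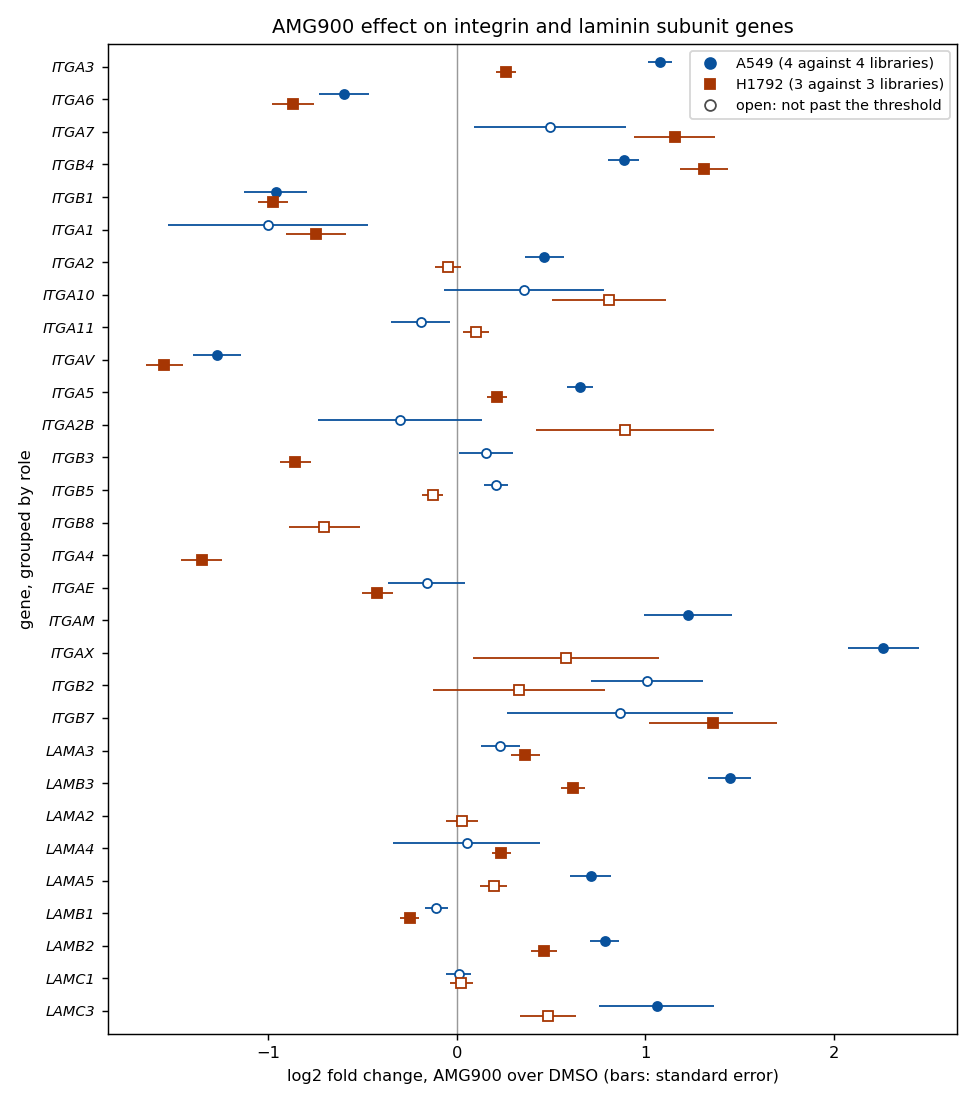
Log2 fold change of AMG900 over DMSO (x axis, bars are standard errors) for each subunit gene tested, circles for A549 and squares for H1792, filled where the adjusted p was under 0.01. ITGAV, ITGB1 and ITGA6 lie left of 0 in both lines, ITGB4 and LAMB3 lie right of 0 in both, and ITGAX lies farthest to the right in A549.

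The starts of the genes that moved together were read from RefSeq for the 250 bases before a listed transcription start (GRCh38.p14, sense strand). Where several starts were listed for a gene, the farthest upstream of them was taken. A listed start may lie inside the gene, downstream of other starts, and other promoters of the gene were not read. A start was found for 26 of the 38 genes, and ITGA3, ITGB3 and ITGB4 were among those not matched. ITGB1 and ITGAV are shown because they fell in both lines, LAMB3 because it rose in both, and LAMA3 as its partner chain. Capitals mark matches on either strand to the AP-1 motif TGANTCA, the GC box GGGCGG or the TEAD motif GGAATG, and no marked match overlaps another.
ITGB1 (chr10:32958231-32958480, minus strand): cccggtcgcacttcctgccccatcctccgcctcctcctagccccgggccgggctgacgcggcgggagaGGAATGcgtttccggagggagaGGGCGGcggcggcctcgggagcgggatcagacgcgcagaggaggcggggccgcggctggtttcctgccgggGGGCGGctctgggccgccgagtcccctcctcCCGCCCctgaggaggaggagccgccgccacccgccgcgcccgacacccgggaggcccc
ITGAV (chr2:186589806-186590055, plus strand): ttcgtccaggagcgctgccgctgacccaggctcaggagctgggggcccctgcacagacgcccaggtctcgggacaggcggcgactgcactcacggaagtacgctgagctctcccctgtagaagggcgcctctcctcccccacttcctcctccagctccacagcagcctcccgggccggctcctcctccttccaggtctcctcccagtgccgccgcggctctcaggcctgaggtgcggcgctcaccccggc
LAMB3 (chr1:209652426-209652675, minus strand): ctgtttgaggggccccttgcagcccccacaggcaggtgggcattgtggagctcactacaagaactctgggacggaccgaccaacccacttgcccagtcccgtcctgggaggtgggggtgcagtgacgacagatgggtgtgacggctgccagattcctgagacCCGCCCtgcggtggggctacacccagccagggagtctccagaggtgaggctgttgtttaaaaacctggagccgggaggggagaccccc
LAMA3 (chr18:23872770-23873019, plus strand): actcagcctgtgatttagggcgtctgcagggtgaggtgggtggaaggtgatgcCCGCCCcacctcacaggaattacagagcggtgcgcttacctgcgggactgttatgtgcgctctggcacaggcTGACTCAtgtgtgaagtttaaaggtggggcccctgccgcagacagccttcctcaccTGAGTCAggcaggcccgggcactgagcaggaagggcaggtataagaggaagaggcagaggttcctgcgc

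The ITGB1 start shown has a GC content of 78.4% although the ITGB1 transcript has 39.5%, and this start holds 3 GC boxes and 1 TEAD match. ITGAV (70.8% GC) holds none of these motifs, LAMB3 (64.0%) holds 1 GC box, and LAMA3 (60.4%) holds 2 AP-1 matches and 1 GC box. Over the 26 starts, the GC box was found in 13, AP-1 in 1 (LAMA3) and the TEAD motif in 4. Over all 27303 starts of the same length these motifs were found in 42.2% (GC box), 6.57% (AP-1) and 3264 of the starts (TEAD). The CCAAT box (CCAAT) was found in 4 of the 26 starts and 33.0% of all, the TATA box (TATAAA) in 1 and 11.2%, and the cell cycle element CHR (TTTGAA) in 4 and 13.6%. A match is a run of letters and says nothing of binding.

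ITGB1, on chromosome 10 from 33176201 to 33294720 of GRCh37 (minus strand), encodes the beta chain shared by most matrix receptors. It was at 710, 441, 392 and 368 CPM in the A549 DMSO libraries and at 265, 270, 276 and 225 CPM in the A549 AMG900 libraries. In H1792 it was at 77.9, 94.8 and 90.3 CPM with DMSO and at 42.4, 44.7 and 47.3 CPM with AMG900. Every AMG900 library was below every DMSO library of its line. ITGB1 fell by 0.96 ± 0.17 on the log2 scale in A549 (SE, edgeR adjusted p = 2.98e-04) and fell by 0.97 ± 0.08 in H1792 (edgeR adjusted p = 1.02e-05). DMSO replicate 1 was the highest A549 library, and without it the A549 log2 fold change was -0.70 (edgeR adjusted p = 9.15e-09).

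ITGAV, on chromosome 2 from 187454737 to 187545628 (GRCh37, plus strand), encodes the alpha chain of the vitronectin receptors and fell most of the genes called in both lines. Its level was 35.9, 36.5, 29.0 and 30.1 CPM in A549 DMSO and 14.7, 12.8, 16.0 and 13.7 CPM in A549 AMG900, so that it fell by 1.27 ± 0.13 on the log2 scale (edgeR adjusted p = 1.59e-06). In H1792 the level was 23.4, 26.2 and 27.2 CPM with DMSO and 7.85, 9.26 and 9.22 CPM with AMG900, so that it fell by 1.55 ± 0.10 (edgeR adjusted p = 2.52e-06). The groups did not overlap in either line, and both calls held with any single library left out. Between the lines the fall differed by -0.36 ± 0.16 and was not called (edgeR adjusted p = 0.126).

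ITGA6, whose product pairs with ITGB1 or with ITGB4 to bind laminin, was at 12.2, 14.9, 14.4 and 15.3 CPM in A549 DMSO and at 10.2, 10.7, 9.65 and 9.55 CPM with AMG900. Its H1792 level went from 13.6, 17.5 and 16.5 CPM to 8.22, 9.504 and 8.42 CPM. ITGA6 fell by 0.60 ± 0.13 on the log2 scale in A549 (edgeR adjusted p = 0.00175) and fell by 0.87 ± 0.11 in H1792 (edgeR adjusted p = 1.37e-04). The A549 groups were separated by a narrow margin, with the lowest DMSO library at 12.2 CPM and the highest AMG900 library at 10.7 CPM.

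Other laminin-binding chains moved the other way. ITGA3, on chromosome 17 from 48133332 to 48167845 (GRCh37, plus strand), was at 853, 773, 841 and 830 CPM in A549 DMSO and at 1682, 1902, 1768 and 2002 CPM with AMG900. It was the highest subunit gene of A549 by RPKM in both treatments, and its rise of 1.08 ± 0.06 on the log2 scale (edgeR adjusted p = 5.89e-09) went with a summed alpha chain level of 214 ± 6.42 RPKM with DMSO and 443 ± 29.0 RPKM with AMG900. The H1792 libraries were at 188, 180 and 193 CPM with DMSO and at 232, 225 and 218 CPM with AMG900, a rise of 0.26 ± 0.05 (edgeR adjusted p = 0.00196). The H1792 call was lost without AMG900 replicate 1 or 2, with log2 fold changes of 0.23 to 0.29 over the left-out libraries and a highest adjusted p of 0.0152. Under GC correction the H1792 value was -0.07 and not called (edgeR adjusted p = 0.293), while the A549 rise was 0.68 and still called. The rise was smaller in H1792, with a log2 difference (H1792 minus A549) of -0.89 ± 0.09 (edgeR interaction test, adjusted p = 4.61e-07).

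ITGB4 was at 43.4, 41.4, 49.3 and 44.7 CPM in A549 DMSO and at 82.5, 85.4, 88.8 and 92.6 CPM with AMG900, a rise of 0.88 ± 0.08 (edgeR adjusted p = 6.50e-07). Its H1792 level went from 3.54, 2.66 and 3.29 CPM to 8.14, 7.80 and 7.73 CPM, a rise of 1.31 ± 0.13 (edgeR adjusted p = 2.43e-05). Between the lines the rise differed by 0.35 ± 0.14, with a 95% interval of 0.08 to 0.62, and was not called (edgeR adjusted p = 0.0715), although the level in H1792 after AMG900 was still under the A549 level with DMSO. ITGA7, a laminin-binding chain best known from muscle, was at 1.10, 1.68 and 1.10 CPM in H1792 DMSO and at 3.27, 2.74 and 2.59 CPM with AMG900, a rise of 1.16 ± 0.21 (edgeR adjusted p = 0.00126), whose call was lost without AMG900 replicate 1 (highest adjusted p 0.0105). Under GC correction the H1792 rise of ITGA7 was 0.83 and just missed the threshold (edgeR adjusted p = 0.0101). With transcript length corrected as well it was 0.91 and called (edgeR adjusted p = 0.00532). In A549 the ITGA7 libraries overlapped and the log2 fold change was 0.50 ± 0.40 (edgeR adjusted p = 0.327).

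Without GC correction, the RNA ratios of partner chains shifted. The RPKM ratio of ITGA3 to ITGB1 was 1.40 ± 0.364 (SD, n = 4) in A549 DMSO and 5.48 ± 0.907 with AMG900, and in H1792 it was 1.64 ± 0.198 (SD, n = 3) and 3.84 ± 0.327. The ratio of ITGB4 to ITGA6 was 3.13 ± 0.375 and 8.63 ± 0.822 in A549, and 0.201 ± 0.0536 and 0.897 ± 0.0838 in H1792. The ratio of ITGA5 to ITGB1 was 0.254 ± 0.0793 and 0.727 ± 0.0778 in A549, and 2.23 ± 0.163 and 5.05 ± 0.447 in H1792. For each of these ratios, every AMG900 library was above every DMSO library of the line. Each ratio sets a GC-rich chain over a GC-poor one, and none was corrected for it. With GC correction, ITGA3 and ITGA5 were at -0.07 each in H1792 and not called, against -0.60 for ITGB1. In A549 they were at 0.68 and 0.33, against -0.52 for ITGB1. Corrected ITGB4 and ITGA6 were at 0.43 and -0.30 (the latter not called) in A549 and at 0.97 and -0.65 in H1792. The share of ITGB1 in the beta chain RPKM went from 58.4% ± 7.96 to 38.1% ± 3.30 in A549 and from 24.0% ± 2.88 to 14.9% ± 0.387 in H1792. The share of ITGB5 went from 36.1% ± 6.85 to 50.9% ± 2.84 and from 71.4% ± 2.91 to 80.1% ± 0.512.

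**Figure D4:**
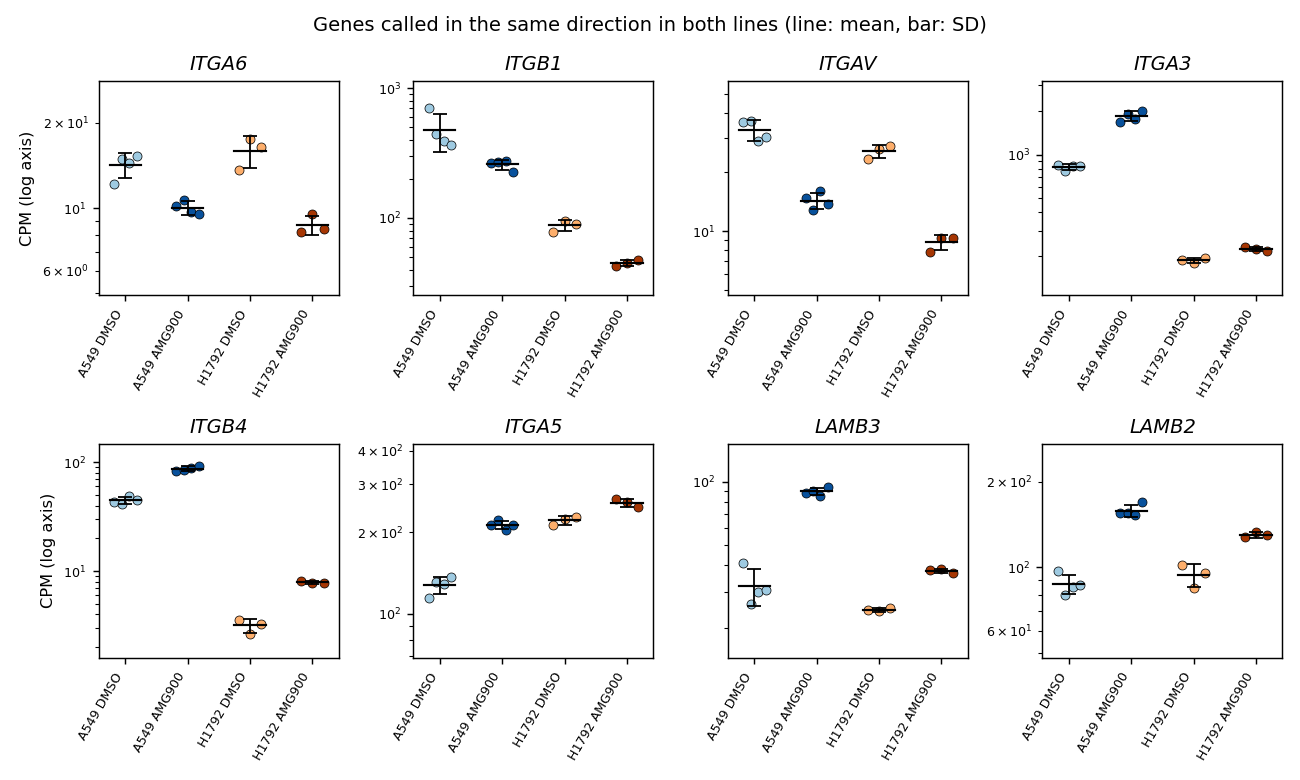
CPM per library on a log axis for the 8 subunit genes called in the same direction in both lines, with each group's mean (line) and SD (bar). The AMG900 points of ITGA6, ITGB1 and ITGAV lie below the DMSO points of their line, those of ITGA3, ITGB4, ITGA5, LAMB3 and LAMB2 lie above, and the ITGB1 point of A549 DMSO replicate 1 lies above the rest of its group.

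ITGA5 was at 115, 131, 129 and 136 CPM in A549 DMSO and at 213, 221, 203 and 214 CPM with AMG900, a rise of 0.65 ± 0.07 (edgeR adjusted p = 2.92e-06). The H1792 libraries were at 212, 223 and 228 CPM with DMSO and at 265, 259 and 247 CPM with AMG900, a rise of 0.21 ± 0.05 (edgeR adjusted p = 0.00693). The H1792 groups did not overlap, but the call was lost without DMSO replicate 3 or any AMG900 replicate, with log2 fold changes of 0.16 to 0.24 and a highest adjusted p of 0.0402. It was also lost with a replicate block (0.21, edgeR adjusted p = 0.0195), with total count scaling (0.15, edgeR adjusted p = 0.0440) and under GC correction (-0.07, edgeR adjusted p = 0.352). The A549 rise of ITGA5 was 0.33 under GC correction and still called. The rise was smaller in H1792, with a log2 difference of -0.51 ± 0.09 (edgeR interaction test, adjusted p = 3.82e-04).

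ITGB3, a vitronectin receptor chain that pairs with ITGAV, differed most between the lines among the genes called for that difference. In H1792 it was at 21.1, 22.1 and 19.95 CPM with DMSO and at 11.2, 11.3 and 12.5 CPM with AMG900, so that it fell by 0.86 ± 0.08 on the log2 scale (edgeR adjusted p = 2.42e-05). In A549 it was at 11.7, 18.7, 18.6 and 19.3 CPM with DMSO and at 21.5, 22.4, 18.9 and 19.6 CPM with AMG900, and the log2 fold change of 0.16 ± 0.14 was not called (edgeR adjusted p = 0.383). DMSO replicate 1 was the low A549 library, and without it the A549 value was 0.05. The effect was lower in H1792, with a log2 difference of -1.08 ± 0.18 (edgeR interaction test, adjusted p = 1.88e-04), and -0.97 without that library.

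ITGB5 ranked among the 3 highest subunit genes by RPKM in all 4 groups. It was at 318, 337, 336 and 355 CPM in A549 DMSO and at 414, 405, 385 and 440 CPM with AMG900, and at 332, 294 and 307 CPM and 276, 289 and 291 CPM in H1792. Neither log2 fold change was called, at 0.21 ± 0.06 in A549 (edgeR adjusted p = 0.0129) and -0.13 ± 0.06 in H1792 (edgeR adjusted p = 0.0859), yet the groups did not overlap in either line. Their difference of -0.41 ± 0.09 was called (edgeR interaction test, adjusted p = 0.00232), and was lost without H1792 AMG900 replicate 1 (adjusted p = 0.0107). Without A549 DMSO replicate 1, the A549 rise of ITGB5 was called as well. In H1792 ITGB5 was called as lower under GC correction (-0.33, edgeR adjusted p = 9.94e-05), with transcript length corrected as well (-0.24, edgeR adjusted p = 0.00108) and under total count scaling.

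The collagen-binding alpha chains gave few calls. ITGA2 was at 21.5, 21.0, 20.4 and 19.3 CPM in A549 DMSO and at 26.9, 32.5, 30.1 and 29.8 CPM with AMG900, a rise of 0.47 ± 0.10 (edgeR adjusted p = 0.00208) that was lost without DMSO replicate 4 or AMG900 replicate 2 (log2 fold changes of 0.42 to 0.50, highest adjusted p 0.0108). In H1792 it was at 56.1, 65.5 and 61.5 CPM and at 59.8, 59.9 and 58.0 CPM, and its log2 fold change was -0.05 ± 0.07. The effect was lower in H1792, with a log2 difference of -0.59 ± 0.12 (edgeR interaction test, adjusted p = 0.00107). ITGA1 fell in H1792, from 2.73, 3.19 and 3.41 CPM to 1.90, 1.78 and 1.87 CPM, changing by -0.75 ± 0.16 on the log2 scale (edgeR adjusted p = 0.003), and lost its call without DMSO replicate 3 or any AMG900 replicate (log2 fold changes of -0.86 to -0.68, highest adjusted p 0.0156). Under GC correction the H1792 value of ITGA1 was -0.32 and not called (edgeR adjusted p = 0.0897). With transcript length corrected as well it was -0.30 (edgeR adjusted p = 0.104). The A549 value of ITGA1, -1.001 ± 0.53, was not called, with 5 to 20 counts per library. ITGA1 shares 4.60% of its transcript with PELO on the same strand, and how reads of the shared part were counted is not given in the sources used here.

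ITGA4 was tested in H1792 only, where it fell by 1.35 ± 0.11 on the log2 scale, from 12.7, 12.5 and 15.1 CPM to 4.98, 5.57 and 5.28 CPM (edgeR adjusted p = 8.56e-06). In A549 it had 5 to 10 counts per DMSO library and 1 to 4 per AMG900 library, too few for the filter. CERKL, on the opposite strand, covers 41.5% of the ITGA4 transcript, and whether the counting used the strand is not given in the sources used here, so reads of the 2 genes may be mixed.

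The leukocyte chains were low, and 2 of them rose in A549. ITGAX was at 2.88, 2.32, 3.89 and 4.49 CPM with DMSO and at 18.1, 15.5, 19.1 and 18.6 CPM with AMG900, a rise of 2.26 ± 0.19 (edgeR adjusted p = 2.51e-07) and the largest fold change among the subunit genes called in either line. ITGAM was at 1.33, 2.32, 1.87 and 1.90 CPM and at 5.27, 4.47, 4.82 and 4.45 CPM, a rise of 1.23 ± 0.23 (edgeR adjusted p = 5.85e-04). ITGB2, the beta chain that both pair with in leukocytes, was at 2.22, 0.946, 1.80 and 2.13 CPM and at 3.01, 3.55, 3.25 and 4.98 CPM, and its log2 fold change was 1.01 ± 0.30, not called with all libraries (edgeR adjusted p = 0.0115) but called without DMSO replicate 1. The 3 genes showed no overlap between A549 DMSO and AMG900 libraries, but how common this was among all genes was not counted. In H1792, ITGAX and ITGB2 were at 5 to 23 counts per library and were not called, and ITGAM was not tested.

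Of the 7 leukocyte marker genes, the defining genes PTPRC, CD3E and AIF1 were at or under 0.0941 CPM in every A549 library, and CD3E and AIF1 were at 0 counts in all of them. The summed list was 60.03 to 86.9 CPM with DMSO and 163 to 179 CPM with AMG900 in A549. Most of that sum was CD68, a lysosomal gene that other cells express too, at 54.9 to 80.7 CPM with DMSO and 152 to 169 CPM with AMG900. CD14, a monocyte marker, was at 1.89 to 6.10 CPM with DMSO and 9.41 to 11.3 CPM with AMG900. Their part in the rise of the leukocyte chains was not tested.

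ITGAE, a chain of intraepithelial lymphocytes, was at 17.6, 16.5 and 15.8 CPM in H1792 DMSO and at 12.8, 12.8 and 11.7 CPM with AMG900, so that it fell by 0.42 ± 0.08 (edgeR adjusted p = 0.00190) that was lost without AMG900 replicate 3 (highest adjusted p 0.0111). Its A549 libraries overlapped, at 7.72 to 11.2 CPM and 6.37 to 11.8 CPM. ITGB7 rose in H1792 from 0.502, 0.252 and 0.560 CPM to 1.17, 0.840 and 1.37 CPM (log2 fold change 1.36 ± 0.34, edgeR adjusted p = 0.00697), and lost its call without DMSO replicate 2 or 3 or AMG900 replicate 1 or 3 (log2 fold changes of 1.08 to 1.54, highest adjusted p 0.0366). Under GC correction the H1792 value of ITGB7 was 1.07 and not called (edgeR adjusted p = 0.0188). ZNF740, on the opposite strand, covers 52.4% of the ITGB7 transcript, so the ITGB7 values are uncertain.

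LAMA3 and LAMB3 encode chains of the laminin that the hemidesmosome integrin binds. LAMB3, on chromosome 1 from 209788215 to 209825770 (GRCh37, minus strand), was at 41.0, 26.1, 30.0 and 30.5 CPM in A549 DMSO and at 88.6, 90.8, 86.0 and 95.0 CPM with AMG900, a rise of 1.45 ± 0.11 (edgeR adjusted p = 1.44e-07). In H1792 it was at 24.4, 24.2 and 24.9 CPM with DMSO and at 37.9, 38.3 and 36.6 CPM with AMG900, a rise of 0.62 ± 0.06 (edgeR adjusted p = 3.23e-05). The groups were far apart in both lines and no left-out library ended either call. The rise was smaller in H1792, with a log2 difference of -0.91 ± 0.14 (edgeR interaction test, adjusted p = 8.71e-05).

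LAMA3 was at 45.9, 57.9, 60.01 and 66.7 CPM in A549 DMSO and at 79.3, 70.9, 72.0 and 66.0 CPM with AMG900, and the log2 fold change of 0.23 ± 0.10 was not called (edgeR adjusted p = 0.0795). In H1792 it rose from 30.1, 35.8 and 35.4 CPM to 43.5, 44.1 and 42.7 CPM, by 0.36 ± 0.08 (edgeR adjusted p = 0.00278). The call was lost without any AMG900 replicate, with log2 fold changes of 0.26 to 0.40 and a highest adjusted p of 0.0173. Between the lines the effect differed by 0.06 ± 0.14 and was not called (edgeR adjusted p = 0.791).

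LAMA5 was at 497, 354, 384 and 368 CPM in A549 DMSO and at 593, 675, 683 and 817 CPM with AMG900, a rise of 0.71 ± 0.11 (edgeR adjusted p = 1.05e-04) and of 0.84 without DMSO replicate 1. Under GC correction the A549 rise was only 0.25 (edgeR adjusted p = 0.00156), and with transcript length corrected as well it was 0.28 (edgeR adjusted p = 0.00312). The H1792 libraries were at 49.6, 42.0 and 46.1 CPM with DMSO and at 53.2, 50.7 and 54.3 CPM with AMG900, without overlap and without a call (0.20 ± 0.07, edgeR adjusted p = 0.0394). The effect was lower in H1792, with a log2 difference of -0.59 ± 0.15 (edgeR interaction test, adjusted p = 0.00808), a call that was lost in 11 of 14 fits with a library left out, all but those without A549 DMSO replicate 1, A549 AMG900 replicate 1 or H1792 DMSO replicate 2 (log2 differences of -0.71 to -0.51, highest adjusted p 0.0263).

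LAMB2, a beta chain of nerve, muscle and kidney basement membranes that epithelia also make, rose in both lines. It was at 97.0, 80.2, 85.4 and 86.7 CPM in A549 DMSO and at 155, 155, 153 and 170.0 CPM with AMG900 (0.78 ± 0.08, edgeR adjusted p = 1.21e-06). The H1792 libraries were at 102, 84.8 and 95.6 CPM and at 127, 133 and 129.5 CPM (0.46 ± 0.07, edgeR adjusted p = 3.14e-04). Under GC correction the H1792 value of LAMB2 was 0.15 and no longer called (edgeR adjusted p = 0.0156), while its A549 rise was 0.40 and still called. The difference of -0.40 ± 0.11 was at the threshold (edgeR interaction test, adjusted p = 0.00993) and was lost in 12 of 14 fits with a library left out, kept without A549 DMSO replicate 1 or H1792 DMSO replicate 2 (log2 differences of -0.47 to -0.35, highest adjusted p 0.0313). The share of LAMB2 in the laminin beta RPKM went from 15.6% ± 0.461 to 22.5% ± 0.815 in A549 and from 20.4% ± 1.51 to 28.0% ± 0.455 in H1792.

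The partners LAMB1 and LAMC1, which make up the stem of the commonest laminins, moved little. LAMB1 was at 408 to 444 CPM in A549 DMSO and at 402 to 427 CPM with AMG900, and it fell in H1792 from 338, 333 and 318 CPM to 270.1, 278 and 287 CPM, changing by -0.25 ± 0.05 on the log2 scale (edgeR adjusted p = 0.00226). That call was lost without AMG900 replicate 1 or 2 (log2 fold changes of -0.28 to -0.23, highest adjusted p 0.0178). LAMC1 had log2 fold changes of 0.01 ± 0.07 in A549 and 0.02 ± 0.06 in H1792, with 95% intervals of -0.12 to 0.14 and -0.10 to 0.15.

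LAMA4 rose in H1792 from 119, 119 and 121 CPM to 139.5, 141 and 144 CPM, by 0.24 ± 0.05 (edgeR adjusted p = 0.00237), and lost its call without DMSO replicate 3 or any AMG900 replicate (log2 fold changes of 0.21 to 0.25, highest adjusted p 0.0174). LAMA2 stayed at 30.8 to 39.1 CPM with DMSO and 35.4 to 35.9 CPM with AMG900 in H1792 (0.03 ± 0.09, edgeR adjusted p = 0.809). LAMC3, a minor gamma chain, rose in A549 from 1.33, 1.12, 2.38 and 2.30 CPM to 3.58, 2.98, 4.01 and 5.84 CPM (1.06 ± 0.30, edgeR adjusted p = 0.00984). The call was lost without DMSO replicate 2, 3 or 4 or AMG900 replicate 1, 3 or 4, with log2 fold changes of 0.85 to 1.22 and a highest adjusted p of 0.0429. It was also lost under GC correction (0.61, edgeR adjusted p = 0.0950) and with transcript length corrected as well (0.69, edgeR adjusted p = 0.0603). Total count scaling lost it too (0.98, edgeR adjusted p = 0.0146). In H1792 LAMC3 was at 2.21 to 2.45 CPM and 2.97 to 3.58 CPM, without a call (0.48 ± 0.15, edgeR adjusted p = 0.0201).

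ITGB8 had a log2 fold change of -0.70 ± 0.19 in H1792, which just missed the threshold (edgeR adjusted p = 0.0103). ITGA8, ITGA9, ITGAD, ITGAL, ITGB6, LAMA1 and LAMB4 were too low to be tested for an AMG900 effect in either line. ITGA8 had 0 counts in all 8 A549 libraries, which allows up to 0.158 to 0.705 CPM depending on depth, a limit that covers counting error only. ITGB6 had 9 to 24 counts per A549 DMSO library and 4 to 11 per A549 AMG900 library, and at most 5 in any H1792 library.

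The difference of the AMG900 effect between the lines was tested as an interaction in a fit over all 14 libraries. Of 32 subunit genes tested, 8 had a lower effect in H1792 and 0 a higher one at this threshold. Of all 14769 genes tested, 9.17% were lower and 5.37% higher. The 8 genes were ITGA3, ITGA2, ITGA5, ITGB3, ITGB5, LAMB3, LAMA5 and LAMB2. The median over the tested subunit genes was -0.28, against -0.10 over all genes. With the size factors of DESeq2 the calls over all genes were split 1012 higher and 1033 lower, and with total count scaling 988 and 1047, against 793 and 1355 with TMM normalization. With the DESeq2 size factors 5 subunit genes were lower and 0 higher. ITGA3, ITGA2, ITGA5, ITGB3 and LAMB3 were the 5 that held, and with total count scaling ITGB5 held as well.

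The direction of change went with the base composition of the transcripts. Subunit genes that rose had a median GC content of 59.9% in A549 and 59.5% in H1792, and those that fell had a median of 39.5% and 41.0%. Over the tested subunit genes, Spearman's rho between GC content and log2 fold change was 0.702 in A549 (28 genes) and 0.747 in H1792 (30 genes), and over all genes with a GC value it was 0.499 and 0.481. These are correlations across genes of the same libraries, which are not independent replicates. With a correction for GC content, the ITGB1 log2 fold changes were -0.52 and -0.60 in A549 and H1792, the ITGAV values were -0.80 and -1.10, ITGB4 rose by 0.43 and 0.97, and LAMB3 rose by 1.09 and 0.31. All of these calls held under that correction, whereas with transcript length corrected as well the A549 call of ITGB1 was lost, at -0.49. ITGA6 was not called in A549 under the correction, at -0.30, and in H1792 ITGA3 and ITGA5 turned to -0.07 each and were not called. The correction kept 11 of 13 calls in A549 and 11 of 18 in H1792. ITGA2, with a GC content of 40.1%, was the called gene that rose against this trend in A549, and under the correction its rise was 0.87 in A549 and 0.29 in H1792, both called.

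**Figure D5:**
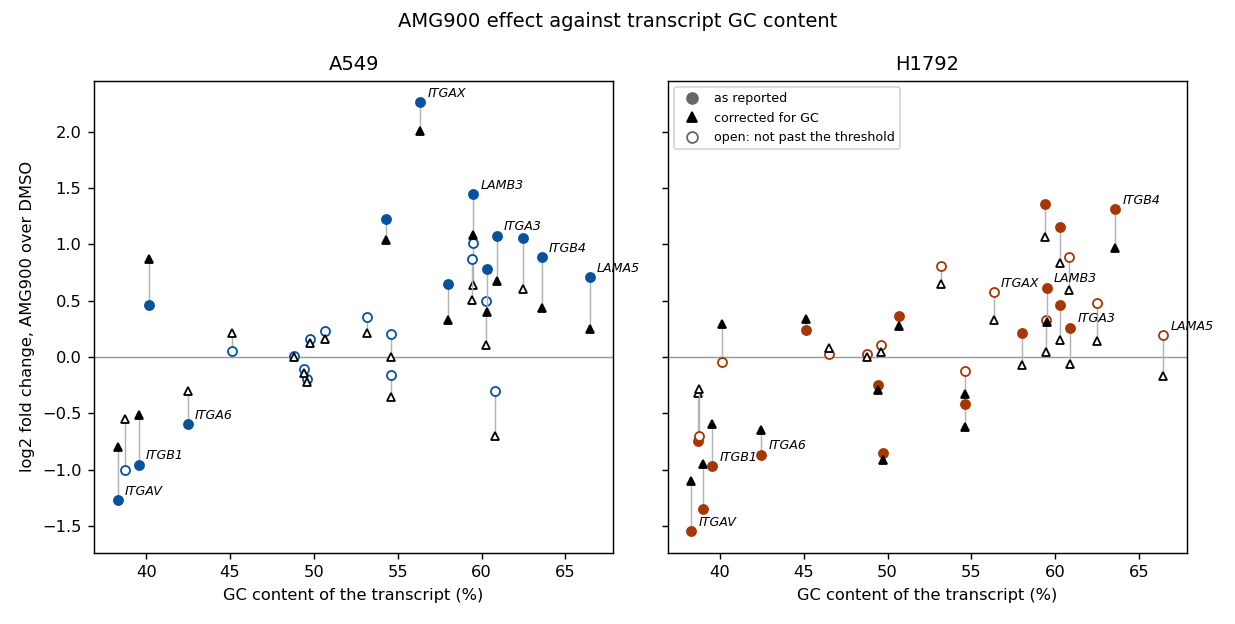
Log2 fold change of AMG900 over DMSO against the GC content of the transcript in percent for the subunit genes tested in A549 (left) and H1792 (right), as reported (circles) and corrected for GC content (triangles), filled where the adjusted p was under 0.01. The genes of lowest GC content lie mostly below 0 and the GC-rich genes mostly above, and the triangles lie closer to 0 than the circles for most genes.

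The genes that act with integrins and laminins were described by lists of their roles. Of 25 adaptors and kinases of focal adhesions, 5 rose and 7 fell in A549 and 8 rose and 6 fell in H1792. Of all genes tested, 17.2% rose and 17.8% fell in A549 and 16.2% rose and 18.8% fell in H1792, and the other lists were read against the same shares. VCL, the actin linker vinculin, fell in both lines, from 229 to 288 CPM to 128 to 146 CPM in A549 (fell by 1.06 ± 0.08, edgeR adjusted p = 1.07e-07) and from 132 to 144 CPM to 83.0 to 84.9 CPM in H1792 (fell by 0.73 ± 0.06, edgeR adjusted p = 6.75e-06). SRC, a kinase of focal adhesions, rose from 302 to 338 CPM to 492 to 535 CPM in A549 (0.62 ± 0.06, edgeR adjusted p = 1.33e-06). FERMT2, an integrin activator, fell in H1792 from 6.69 to 8.94 CPM to 2.81 to 3.31 CPM (fell by 1.31 ± 0.14, edgeR adjusted p = 4.31e-05). The median log2 fold change of this list was 0.02 in A549 and 0.07 in H1792, close to the -0.01 and 0.01 of all genes. Of the 25 tested for a difference of the effect between the lines, 2 were lower in H1792 and 0 higher. Over all genes 9.17% were lower and 5.37% higher. Settings tried after these values were seen gave 0 lower and 0 higher with total count scaling and 2 and 1 with GC correction.

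Of the integrin ligands other than laminins, 16 were tested in A549, of which 10 rose and 2 fell (median 0.60), and 19 in H1792, of which 4 rose and 8 fell (median -0.07). VTN, the ligand of the ITGAV receptors, rose in A549 from 30.8 to 36.4 CPM to 107 to 128 CPM (1.72 ± 0.09, edgeR adjusted p = 9.66e-10). THBS1, another such ligand, fell by 1.42 ± 0.12 on the log2 scale in A549 (edgeR adjusted p = 3.28e-07) and fell by 1.51 ± 0.06 in H1792 (edgeR adjusted p = 2.44e-07). In H1792, EDIL3 fell by 1.98 ± 0.09 (edgeR adjusted p = 4.23e-07) and CTGF fell by 1.15 ± 0.06 (edgeR adjusted p = 7.53e-07), both binding partners of the ITGAV receptors. FN1, the ligand of the ITGA5 receptor, was at 318 to 445 CPM in A549 DMSO and at 749.8 to 818 CPM with AMG900, and its effect was lower in H1792, with a log2 difference of -1.17 ± 0.14 (edgeR interaction test, adjusted p = 5.50e-06). Of 20 ligands tested for that difference, 8 were lower in H1792 and 0 higher, where 9.17% of all genes were lower and 5.37% higher. Other settings were applied to this list after its values were seen. With the DESeq2 size factors 6 ligands were lower and 0 higher, with total count scaling 7 and 0, and with GC correction 9 and 0.

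Of 18 basement membrane partners of laminin, 8 rose and 1 fell in A549 (median 0.50), and of 17 tested in H1792, 2 rose and 4 fell (median 0.03). COL7A1, the anchoring fibril collagen, rose in A549 from 148 to 228 CPM to 415 to 528 CPM (1.28 ± 0.12, edgeR adjusted p = 6.49e-07). COL4A5, a basement membrane collagen chain, and FBLN1 changed in opposite directions in the lines. COL4A5 rose by 0.86 ± 0.09 in A549 and fell by 0.43 ± 0.07 in H1792, and FBLN1 fell by 0.97 ± 0.09 in A549 and rose by 0.42 ± 0.07 in H1792. Of the 18 partners tested for the difference between the lines, 10 were lower in H1792 and 1, FBLN1, was higher, beside 9.17% lower and 5.37% higher over all genes. The DESeq2 size factors gave 10 lower and 1 higher, total count scaling 9 and 2, and GC correction 10 and 2. All were tried on this list after its values were seen.

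Of the other laminin receptors and hemidesmosome genes, 4 of 12 rose and 0 fell in A549, and 4 of 13 rose and 3 fell in H1792. Their median log2 fold change was 0.29 in A549 and 0.12 in H1792, against -0.01 and 0.01 over all genes. CD82, a tetraspanin that binds laminin-receptor integrins, rose in A549 from 6.87 to 11.3 CPM to 60.1 to 69.8 CPM (2.73 ± 0.12, edgeR adjusted p = 3.09e-10) and in H1792 from 60.4 to 65.8 CPM to 92.6 to 95.7 CPM (0.56 ± 0.06, edgeR adjusted p = 2.98e-05). The CD82 effect was lower in H1792 by a log2 difference of -2.24 ± 0.14 (edgeR interaction test, adjusted p = 4.06e-10). SDC1, the laminin-binding proteoglycan syndecan, fell in H1792 from 100.1 to 119 CPM to 78.7 to 79.9 CPM (fell by 0.46 ± 0.07, edgeR adjusted p = 2.47e-04), and its effect was lower than in A549 (difference -0.96 ± 0.09, edgeR interaction test, adjusted p = 1.55e-07). BCAM, a receptor of LAMA5-containing laminins, rose in both lines, by 0.82 ± 0.08 (edgeR adjusted p = 6.92e-07) and 0.64 ± 0.05 (edgeR adjusted p = 8.59e-06). CD151, the tetraspanin partner of the ITGA3 and ITGA6 receptors, rose in A549 by 0.50 ± 0.06 (edgeR adjusted p = 1.79e-05). The CD151 effect was smaller in H1792 (difference -0.49 ± 0.10, edgeR interaction test, adjusted p = 0.00142). Of the 13 genes of this list tested for that difference, 3 were lower in H1792 and 0 higher, beside 9.17% and 5.37% over all genes.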

How the data were processed

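The deposited files hold raw counts per gene symbol, whole numbers that were not normalized by the authors, in a table for each line. Per the submitters' processing notes, reads were aligned with STAR and counted with HTSeq on hg19. Versions, annotation and strand setting are not given in the sources used here. For H1792, 28 entries carried a calendar date in place of a symbol and were left out.

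Counts were fitted with edgeR 4.0.16 in R 4.3.3 (TMM normalization, filterByExpr, quasi-likelihood test, all genes, Benjamini-Hochberg, threshold 0.01), separately for each line, jointly over 14 libraries for the interaction, and over the DMSO libraries for the baseline. The main edgeR fit of each comparison was also run on simulated counts with known changes. That simulation gave every gene the same spread and left out genes of few counts. It held no outlying library and no GC trend, so it does not cover these, and the alternative fits were not simulated. CPM values use TMM factors over all 14 libraries, and RPKM divides them by the canonical GENCODE transcript length on GRCh37, to which 23601 genes were matched. A 3-count floor and exact intervals cover counting error only. The share of all genes whose groups did not overlap was not counted, so a lack of overlap only describes the libraries of the gene named. Between-replicate biological variation was 12.8% in A549 and 9.60% in H1792.

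Alternatives were DESeq2 1.42.0, its size factors, total count scaling, other filters, a replicate block, leaving out each library, thinning H1792 counts to the A549 depth, and correction for GC content and length by splines of 5 degrees of freedom. Genes described in full were those called with the largest changes (up to 12 per line, 6 in each direction at baseline) plus ITGB1, ITGAV, ITGB4, LAMA3 and LAMB3. A subunit gene that is not reported here stays in the counts of genes and is left out of the plots. From each pathway list, up to 3 called genes of smallest adjusted p were named. Values of other subunit genes, such as ITGA2 and ITGAE, were chosen after they were seen. The subunit genes and lists were chosen with earlier results of these data known.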

Additional observations from a re-analysis of the deposited data

Results flagged for a closer look

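Of 38 groups of 4 libraries tested for a sample far from the others, 4 had one, and chance gives about 1 in 20. ITGB3 was at 11.7 CPM in A549 DMSO replicate 1 and at 18.6 to 19.3 CPM in the other A549 DMSO libraries. ITGA4 was at 1.11 CPM in that same library, against 0.576 to 0.602 CPM in the others. In A549 AMG900 replicate 1 ITGA4 was at 0.376 CPM, against 0.0542 to 0.0709 CPM, on 1 to 4 counts per library. LAMB2 was at 170.0 CPM in A549 AMG900 replicate 4 and at 153 to 155 CPM in the other A549 AMG900 libraries.

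For 8 genes the AMG900 effect differed between the lines by the edgeR interaction test, and each was lower in H1792. The log2 differences (H1792 minus A549) were -0.89 for ITGA3, -0.59 for ITGA2, -0.51 for ITGA5, -1.08 for ITGB3 and -0.41 for ITGB5. They were -0.91 for LAMB3, -0.59 for LAMA5 and -0.40 for LAMB2. ITGB3 was the one of them that fell in H1792 without a call in A549.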

How the results depend on the processing

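With at least a 2-fold change required, 5 subunit genes rose and 1 fell in A549, and 3 rose and 2 fell in H1792. With the same requirement 1 had a lower effect in H1792. The shares of all genes past this limit were not counted. Total count scaling left 6 risen subunit genes in H1792 and GC correction 5, and GC and length correction left 1 fallen subunit gene in A549. Over all genes tested in H1792, total count scaling gave 1859 risen genes and GC correction 2180, against 2439 in the main fit. Over all genes tested in A549, GC and length correction gave 2437 fallen genes, against 2340. Under GC correction, the H1792 log2 fold changes of ITGA3 (-0.065), ITGA5 (-0.068) and LAMA5 (-0.17) turned negative, as did LAMA5 with length included (-0.10). One gene, ITGB4, had a higher effect in H1792 in DESeq2 (1 gene), under GC correction (1 gene) and under GC and length correction (1 gene), and the DESeq2 size factors left 5 genes with a lower one. With at least 10 counts in every library, 5 genes were higher and 7 lower in H1792 at baseline. Leaving out each library gave 8 to 13 risen and 3 to 4 fallen genes in A549, and 3 to 12 and 6 to 8 in H1792. It gave 0 to 0 genes with a higher and 5 to 8 with a lower effect in H1792, and 8 to 10 higher and 11 to 12 lower at baseline. The H1792 count was lowest without AMG900 replicate 1, at 9 genes in all. With libraries left out, the interaction of ITGB1 spanned -0.34 to 0.015, that of ITGA1 -0.11 to 0.55 and that of LAMA3 -0.022 to 0.14, none of them called. The cause of these changes was not tested.

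Same-numbered libraries did not deviate together (r of -0.09 to 0.03 over 4 A549 pairs and of -0.09 to -0.0006 over 3 H1792 pairs), and not every library correlated best with its own number. With a replicate block, 13 genes were called in A549, 16 in H1792 (ITGA5 among the calls lost), 6 for the interaction (without LAMA5 and LAMB2) and 20 at baseline (without ITGA1). With H1792 thinned to the A549 depth, 20 of 21 baseline calls held. Genes of few counts, such as ITGB6 and ITGA8, are limited by the depth of A549.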
